A study of Mus musculus with 7 samples.

Results

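The genes described here are the Hox genes and other transcription factors of positional identity, the genes that mark where along the body a mesenchymal cell arose. Members were chosen by gene symbol: every Hox, Tbx, Meis, Pbx, Pitx and Gata gene with a family number, plus Nr2f1, Nr2f2, Hand1, Hand2, Isl1 and Barx1. The rule found 53 of the 12771 genes in the count table. The set was selected on earlier results of these data, and Hoxc8, Hoxc9, Pitx1 and Hoxa5 were singled out in it for their values, so those 4 genes are given as a description with no test. Cancer-associated fibroblasts (CAFs) of C57BL/6 male mice (substrain J in the study's methods) were taken for bulk RNA-seq 2 to 3 weeks after KPC cells, a mouse pancreatic cancer line, had been injected into the pancreas. The cancer cells carried either a non-targeting short hairpin RNA (shControl, 3 libraries, replicates 1, 2 and 4) or a hairpin against Brca2 (shBrca2, 4 libraries, replicates 1, 2, 3 and 4). The sorted fraction was live, CD45-/CD31-/EpCAM-/PDPN+, so Brca2 was silenced in the injected cells and not in the fibroblasts, and Brca2 counts in these libraries cannot check the hairpin. Reads came from the 3' ends of transcripts, and all values below are normalized counts (counts divided by the library's DESeq2 size factor), which are not divided by gene length and are not compared between genes. The numbers of mice given for the groups equal the numbers of libraries, so each library was taken as a separate mouse.

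Hox genes lie in clusters in which gene order along the chromosome follows the order of their expression domains along the body axis, so that low-numbered paralog groups are used toward the head and high-numbered groups toward the tail and distal limb. Meis and Pbx are homeodomain cofactors that bind DNA together with Hox proteins, Pitx1 specifies the hindlimb, and Gata4, Gata6, Hand2 and Barx1 pattern mesenchyme of the heart and gut. Adult fibroblasts from different sites are known to keep part of this code.

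Of the 74 mouse symbols in RefSeq that match the rule, 21 were not in the table and were not analysed here, among them Hoxa13, Hoxb13 and Hoxc11 to Hoxc13. The table held 28 of 39 Hox genes: 9 of Hoxa, 9 of Hoxb, 6 of Hoxc and 4 of Hoxd. The only measured value that the rule used is presence in the table, whose genes all had a count of 6 or more in at least 1 library. Members took between 0.103% and 0.129% of a library's counts, 46 of the 53 had a count in every library, and 12 had a highest count under 20. Total counts ran from 1898679 to 5990579 per library.

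Counted over the whole set, 47 of the 53 members were tested (mean normalized count over 5). A gene was called at a DESeq2 adjusted p under 0.1 over all genes with an absolute log2 fold change over 0.5. Of all 11629 genes tested, 4.14% were called higher and 5.79% lower, 9.92% in all. Of the members, 9 were called higher (Hoxa7, Hoxa9, Hoxc6, Hoxc8, Hoxc9, Hoxc10, Pitx1, Gata4 and Gata6) and 2 lower (Hoxb5 and Hand2), which is 19.1% and 4.26% of those tested. Without the 4 singled-out genes, 6 of 43 (14.0%) were called higher. These shares support nothing further, since the members were picked with results known and 10 of the 47 passed the filter only through shBrca2, 6 of them among the 9. The median log2 fold change of the tested members was 0.08 and their median size 0.35, beside 0.00 and 0.26 over all genes. Groups did not overlap for 7 tested members in the higher direction and for Hoxb6 alone in the lower (14.9% and 2.13%), beside 7.67% and 9.6% of all genes. The 7 were Hoxc6, Meis1, Pbx3, Gata4 and the singled-out Hoxc8, Hoxc9 and Pitx1. Of these, Gata4, Hoxc8, Hoxc9 and Pitx1 passed the filter only through shBrca2, so this share supports nothing further either. Scaling to total counts moved the median of all genes to 0.12 and turned the split of calls over the whole table from 481 higher and 673 lower into 708 and 502. Under it, Hoxa10 was also called (2.38, adjusted p = 0.090), Hoxb5 was not (adjusted p = 0.12), and the other 10 called members kept their calls.

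Hoxc8 and Hoxc9, which pattern the thoracic trunk, were near 0 in shControl CAFs and well above it in shBrca2 CAFs. Hoxc8 (chromosome 15, 102990539 to 102994275, plus strand, GRCm38) measured 3.42, 1.27 and 2.92 normalized counts in the shControl libraries, in the order of their replicate numbers as throughout, and 50.8, 5.25, 51.8 and 48.8 in the shBrca2 libraries. Its neighbour Hoxc9 (102977032 to 102984444) was 1.71, 2.53 and 3.89 in shControl, and 40.4, 6.99, 57.0 and 61.0 in shBrca2. For both genes every shBrca2 library was above every shControl library, and shBrca2 replicate 2 was the lowest shBrca2 library by a wide margin. The log2 fold change of shBrca2 over shControl was 3.88 (SE 0.79) for Hoxc8 and 3.92 (SE 0.76) for Hoxc9. Over the 7 fits that each left out a library, it stayed between 3.60 and 4.25 for Hoxc8 and between 3.64 and 4.30 for Hoxc9.

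**Figure D1:**
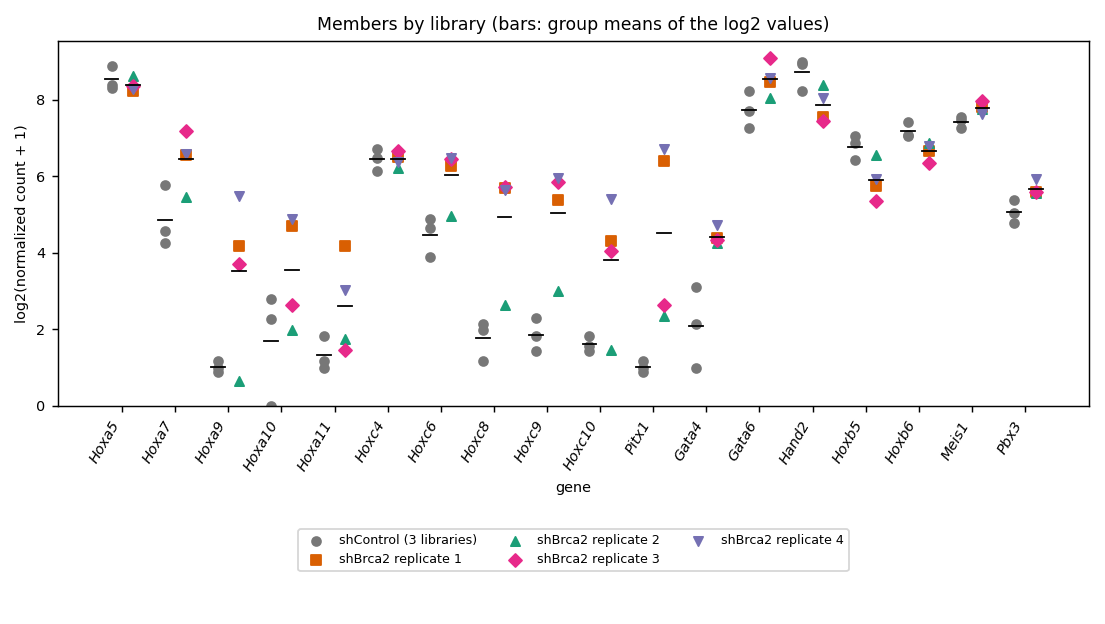
Expression of 18 members in every library, the 11 called members among them, on a log2(normalized count + 1) axis, with 1 point per library and bars at the group means of the log2 values. Hoxc8, Hoxc9, Hoxc10, Hoxa9 and Pitx1 sit near the bottom of the axis in all 3 shControl libraries, and shBrca2 replicate 2 lies nearer to them than shBrca2 replicates 1 and 4 do.

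In the rest of the HoxC cluster, Hoxc6 and Hoxc10 were called higher and Hoxc4 and Hoxc5 were not called. Hoxc6, a mid-trunk gene of the same cluster (102998226 to 103011882), was 23.9, 13.9 and 28.2 in shControl and 75.7, 30.3, 86.4 and 87.4 in shBrca2, with no overlap between the groups. It rose with a log2 fold change of 1.63 (SE 0.41, DESeq2 adjusted p = 0.0033), and its adjusted p was between 5.6e-06 and 0.026 when each library was left out. Hoxc10, a lumbar and hindlimb gene at the 5' side of the cluster (102966796 to 102971898), was 1.71, 2.53 and 1.95 in shControl and 18.9, 1.75, 15.5 and 41.7 in shBrca2, so that shBrca2 replicate 2 lay inside the shControl range. The mean of Hoxc10 was higher in shBrca2 (log2 fold change 3.25, SE 0.93, DESeq2 adjusted p = 0.012), but it was no longer called without shBrca2 replicate 4 (2.53, adjusted p = 0.14; range over the left-out libraries 6.0e-05 to 0.14). Like Hoxc8 and Hoxc9, it passed the mean of 5 only through shBrca2, so its p describes the fit and is no support for a rise. Hoxc4, which is used in the neck and upper trunk, was 69.2, 87.3 and 104 in shControl and 89.5, 73.4, 100.2 and 81.3 in shBrca2, a log2 fold change of -0.02 (SE 0.24) with overlapping groups. Hoxc5, the remaining member, was low in every library, at 2.53 to 8.76 in shControl and 3.05 to 7.58 in shBrca2. Summed over its 6 members, the HoxC cluster ran from 103 to 150 normalized counts in shControl and from 125 to 323 in shBrca2, where replicate 2 gave the lowest sum.

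In the HoxA cluster, Hoxa7 and Hoxa9 were called higher. Hoxa9, a gene of the caudal trunk and limb (chromosome 6, 52223097 to 52227370, minus strand, GRCm38), was 0.854, 1.27 and 0.973 in shControl, which is 1 count in each library, and 17.2, 0.583, 12.1 and 43.7 in shBrca2. Again replicate 2 was at the shControl level while the other 3 shBrca2 libraries were above it. Its pooled counts, 3 in shControl and 71 in shBrca2, gave a ratio per unit of size factor of 15.9 with an exact 95% interval of 5.24 to 79.1, which covers counting error only. The mean of Hoxa9 was higher in shBrca2 (log2 fold change 4.18, SE 1.18, DESeq2 adjusted p = 0.0085), and the gene was not called without shBrca2 replicate 4 (3.26, adjusted p = 0.114; range over the left-out libraries 1.5e-05 to 0.114). It too passed the mean of 5 only through shBrca2, so its p describes the fit and is no support for a rise.

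Hoxa7, a thoracic gene (52215623 to 52218573), was 17.9, 22.8 and 53.5 in shControl and 92.9, 43.1, 145 and 94.5 in shBrca2. The groups overlapped only through shControl replicate 4 and shBrca2 replicate 2. Hoxa7 rose (log2 fold change 1.56, SE 0.44, DESeq2 adjusted p = 0.013), and the call was lost without shControl replicate 1 (1.26, adjusted p = 0.105; range over the left-out libraries 0.00021 to 0.105). Hoxa10, next to Hoxa9, was 5.98, 3.80 and 0 in shControl and 25.0, 2.91, 5.18 and 28.5 in shBrca2, high in replicates 1 and 4 alone. It missed the threshold (log2 fold change 2.23, SE 0.91, DESeq2 adjusted p = 0.14), and it was called without shBrca2 replicate 2 (2.60, adjusted p = 0.028), without shBrca2 replicate 3 (2.49, 0.078) and without shControl replicate 1 (3.15, 0.099), over a range of 0.028 to 0.48. Hoxa10 passed the mean of 5 only through shBrca2, so these calls are no support for a rise.

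Hoxa5, a cervical and lung-mesenchyme gene (52201754 to 52204587), was 334, 314 and 472 in shControl and 300.3, 392, 328 and 306 in shBrca2. The groups overlapped, with a log2 fold change of -0.17 (SE 0.20; left-out libraries -0.28 to 0.04). Hoxa2 to Hoxa4, genes of the hindbrain and neck, had log2 fold changes between -0.07 and 0.22, and none was called. The HoxA sum over 9 members was 526 to 724 in shControl and 630 to 683 in shBrca2.

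To show the DNA at the start of genes from this cluster that did and did not change, the 250 bases upstream of the RefSeq start of Hoxa5, Hoxa7 and Hoxa9 are given 5' to 3' on the minus strand of GRCm38.p6, in lower case with each CG dinucleotide in capitals. They lie at chr6:52204588-52204837, chr6:52218574-52218823 and chr6:52227371-52227620.
Hoxa5: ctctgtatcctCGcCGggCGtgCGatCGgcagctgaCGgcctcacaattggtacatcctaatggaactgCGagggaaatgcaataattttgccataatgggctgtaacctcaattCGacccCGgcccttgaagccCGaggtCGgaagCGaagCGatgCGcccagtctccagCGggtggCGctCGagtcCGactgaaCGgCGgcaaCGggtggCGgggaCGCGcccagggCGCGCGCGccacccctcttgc
Hoxa7: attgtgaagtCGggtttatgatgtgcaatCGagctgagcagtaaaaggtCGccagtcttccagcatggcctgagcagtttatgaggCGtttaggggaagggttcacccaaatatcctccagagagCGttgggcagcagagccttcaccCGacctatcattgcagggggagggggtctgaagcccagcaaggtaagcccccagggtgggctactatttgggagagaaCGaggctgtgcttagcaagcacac
Hoxa9: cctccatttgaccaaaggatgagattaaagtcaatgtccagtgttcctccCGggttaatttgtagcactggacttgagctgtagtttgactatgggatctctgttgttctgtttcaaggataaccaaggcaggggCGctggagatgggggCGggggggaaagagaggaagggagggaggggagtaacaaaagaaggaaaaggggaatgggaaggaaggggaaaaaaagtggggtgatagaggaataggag
These windows hold 28, 7 and 3 CG dinucleotides. The RefSeq promoter table matched 30 members with 33 windows, whose median was 13 CG dinucleotides beside 6 over all 32851 promoters of the same length. Neither the Hox-like letters TTTATTG, nor the Pbx-Hox-like TGATTNAT, nor the Meis-like TGACAG occurred in these 3 windows on either strand, which says only that the letters are not in this stretch. Over all promoters, those letters occurred in 4.20%, 2.83% and 15.9% of windows, and over the members' windows in 12.1%, 6.06% and 6.06%. No motif contains another, and a match describes the letters alone.

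In the HoxB cluster, Hoxb5 was the only member called, and it was lower. Hoxb5, a gene of the foregut and cervical level (chromosome 11, 96303512 to 96306121), was 115, 130.3 and 84.6 in shControl and 52.5, 92.7, 39.7 and 59.97 in shBrca2, where replicate 2 again lay within the shControl range. It fell by 0.81 on the log2 scale (SE 0.30, DESeq2 adjusted p = 0.078). The call was lost without shBrca2 replicate 1 (adjusted p = 0.29), without replicate 3 (0.18) or replicate 4 (0.22) of shBrca2, and without shControl replicate 1 (0.26) or 2 (0.24), over a range of 0.0069 to 0.29. Hoxb6, its neighbour, was 132, 133 and 168 in shControl and 99.8, 115, 79.4 and 109 in shBrca2. All 4 shBrca2 libraries were below all 3 shControl libraries, yet Hoxb6 missed the threshold (log2 fold change -0.50, SE 0.21, DESeq2 adjusted p = 0.15; left-out libraries 0.17 to 0.62). Hoxb2, Hoxb3, Hoxb4, Hoxb7 and Hoxb8 had log2 fold changes between -0.45 and 0.49 with none called, and Hoxb1 and Hoxb9 had a mean under 5 and were not tested. Hoxb8, a thoracic gene, was 65.4, 49.0 and 61.0 in shBrca2 replicates 1, 2 and 4 and 13.8 in replicate 3, below all shControl values of 27.8 to 39.9. The HoxB sum was 728 to 843 in shControl and 497 to 709 in shBrca2, with no overlap under the DESeq2 size factors. With scaling to total counts the HoxB sums of the groups overlapped.

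The HoxD cluster was sparse, with 4 members. Hoxd9, of the caudal trunk, was 3.42, 3.80 and 1.95 in shControl and 8.61, 3.50, 13.8 and 14.2 in shBrca2, and it missed the threshold (log2 fold change 1.67, SE 0.76, DESeq2 adjusted p = 0.20). Hoxd9 passed the mean of 5 only through shBrca2. Hoxd4 and Hoxd8 had log2 fold changes of 0.08 and 0.34, and Hoxd10 had 2 counts in all of shControl against 9 in shBrca2.

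By paralog number, called Hox members lay in groups 5 and higher, beside 4.14% called higher and 5.79% lower over all genes. The counts and medians include Hoxa5, Hoxc8 and Hoxc9, which were singled out for their values, so they support no pattern by position. Of the 10 members in paralog groups 1 to 4, 9 were tested and none was called, with a median log2 fold change of -0.02. Among 9 genes, no call is little different from the 9.92% called over all genes. Of the 10 members in groups 5 to 8, Hoxa7, Hoxc6 and Hoxc8 were called higher and Hoxb5 lower, with a median of 0.23. Of the 8 members in groups 9 to 13, 5 were tested and Hoxa9, Hoxc9 and Hoxc10 were called higher, with a median of 3.25. The mean was higher in shBrca2 than in shControl for all 8, but the 5 that were tested passed the mean of 5 only through shBrca2, so their count and median describe the filter as well as the genes. Every gene in the table had a count of 6 or more in some library, and all of the 8 except Hoxa10 reached it only in shBrca2. The shared direction of the 8 therefore describes that limit too and is no support for a rise.

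**Figure D2:**
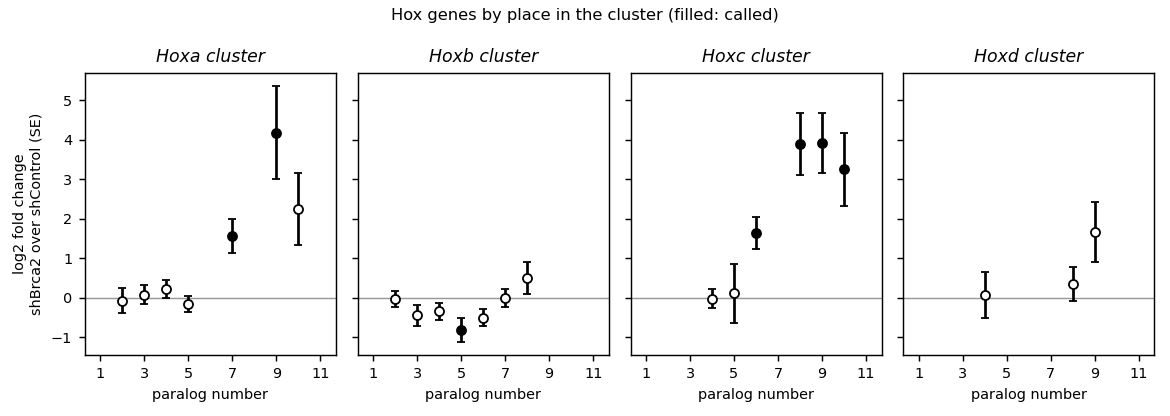
Log2 fold change of shBrca2 over shControl for tested Hox members against its paralog number, in 1 panel per cluster, with bars of 1 standard error and filled points for called genes. Members of groups 1 to 4 that are shown lie around 0 while the HoxA and HoxC members of groups 9 and higher lie above 2, and the HoxB members stay between -0.81 and 0.49.

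A share of Hox counts within a library does not depend on the size factors. Paralog groups 9 to 13 made up 1.47% of Hox counts in shControl replicate 1 (exact 95% binomial interval 0.954 to 2.16), 0.981% in replicate 2 (0.508 to 1.71) and 0.720% in replicate 4 (0.373 to 1.26). The share was 8.11% in shBrca2 replicate 1 (6.93 to 9.42), 1.43% in replicate 2 (1.02 to 1.961), 7.14% in replicate 3 (5.55 to 9.004) and 11.5% in replicate 4 (10.1 to 13.1). Replicates 1, 3 and 4 of shBrca2 were above all shControl libraries, and shBrca2 replicate 2 was within the shControl range although it had the largest Hox count, 2653. The group means were 1.06% ± 0.381 (SD, n = 3) and 7.04% ± 4.18 (SD, n = 4). Of the 8 genes in groups 9 to 13, all except Hoxa10 reached a count of 6, which every gene in the table had, only in shBrca2. The share, with or without Hoxc9, and the ranking of libraries below therefore describe that limit as well as the genes. The share includes Hoxc9, which was singled out for its values. Without Hoxc9, an alternative chosen after seeing the data, the shares were 1.35%, 0.819% and 0.481% in shControl and 5.81%, 0.984%, 3.64% and 8.40% in shBrca2, with means of 0.885% ± 0.440 (SD, n = 3) and 4.71% ± 3.15 (SD, n = 4). Groups 5 to 8 took 55.3% ± 3.89 of Hox counts in shControl and 54.1% ± 2.42 in shBrca2, and groups 1 to 4 took 43.6% ± 3.79 and 38.9% ± 1.99. Among the 8 members of groups 9 to 13, the highest library was shBrca2 replicate 4 for 6 genes and shBrca2 replicate 1 for 2, and the lowest shBrca2 library was replicate 2 for 7.

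**Figure D3:**
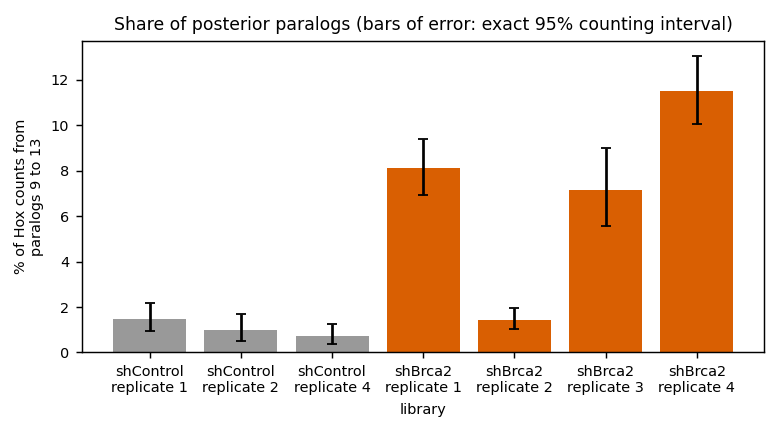
Bars give the percent of each library's Hox counts that came from paralog groups 9 to 13, with exact 95% binomial intervals as error bars. The 3 shControl libraries and shBrca2 replicate 2 lie between 0.720% and 1.47%, and shBrca2 replicates 1, 3 and 4 lie between 7.14% and 11.5%. Apart from Hoxa10, these genes reached a count of 6, which every gene in the table had, only in shBrca2.

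Pitx1, the hindlimb homeodomain factor (chromosome 13, 55825044 to 55836190, minus strand), had 1 count in each shControl library. In normalized counts it was 0.854, 1.27 and 0.973 in shControl and 83.5, 4.08, 5.18 and 102.7 in shBrca2. The groups did not overlap, but shBrca2 replicates 1 and 4 carried nearly all of the signal and replicates 2 and 3 had 7 and 3 counts. The pooled ratio per unit of size factor was 46.7 (exact 95% interval 15.8 to 228, counting error only), and the fitted log2 fold change was 5.59 (SE 1.499; left-out libraries 4.93 to 6.00).

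Gata4, a zinc finger factor of heart, gut and lateral mesoderm (chromosome 14, 63198914 to 63271712, minus strand), was 3.42, 7.59 and 0.973 in shControl and 19.8, 18.1, 19.0 and 25.4 in shBrca2. Here all 4 shBrca2 libraries were alike and above every shControl library, replicate 2 included. Gata4 had a log2 fold change of 2.45 (SE 0.59, DESeq2 adjusted p = 0.00091; left-out libraries 0.00041 to 0.041). Its mean passed the minimum of 5 only through shBrca2, so it could be tested only because it was high there, and its p is no support for a rise. Gata6, its partner in the same tissues, was 152, 207 and 296 in shControl and 353, 263, 541 and 374 in shBrca2, with replicate 2 inside the shControl range. Gata6 rose by 0.80 on the log2 scale (SE 0.28, DESeq2 adjusted p = 0.065). That call was lost without shBrca2 replicate 1 (adjusted p = 0.116), replicate 3 (0.19) or replicate 4 (0.13), and without shControl replicate 1 (0.35) or 2 (0.14), over a range of 0.0098 to 0.35. Gata2 and Gata5 were not called, and Gata3 had a mean under 5.

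Hand2, a basic helix-loop-helix factor of the heart, limb bud and visceral mesenchyme (chromosome 8, 57320983 to 57324517), was 483, 506 and 299.6 in shControl and 187, 331, 173 and 264 in shBrca2. The overlap came from shControl replicate 4 and shBrca2 replicate 2. Hand2 fell by 0.84 on the log2 scale (SE 0.27, DESeq2 adjusted p = 0.033), and the call was lost without shBrca2 replicate 1 (adjusted p = 0.16) and without shControl replicate 1 (0.16) or 2 (0.12), over a range of 0.0019 to 0.16. Hand1 had 3 counts in shControl and 15 in shBrca2 and was not tested.

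The Meis and Pbx cofactors described here were not called. Meis1, a partner of Hox proteins, was 187, 153 and 174 in shControl and 225, 213, 247 and 196 in shBrca2. Pbx3, another partner, was 26.5, 40.5 and 32.1 in shControl and 47.3, 46.0, 46.6 and 59.97 in shBrca2. Neither gene overlapped between the groups, and neither passed the threshold: the log2 fold change was 0.35 (SE 0.18, DESeq2 adjusted p = 0.27) for Meis1 and 0.61 (SE 0.29, adjusted p = 0.23) for Pbx3. Pbx2, Pbx4 and Meis3 had log2 fold changes between -0.07 and 0.22. Barx1, a stomach-mesenchyme factor with 447 to 814 normalized counts in shControl and 338 to 768 in shBrca2, and Nr2f1, Nr2f2 and Isl1 had values between -0.28 and -0.03. Of the 6 Tbx genes, T-box factors of limb, heart and body wall, none was called, and their log2 fold changes ran from -0.90 for Tbx6 (SE 0.44, DESeq2 adjusted p = 0.24) to 0.54 for Tbx4 (SE 0.55).

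**Figure D4:**
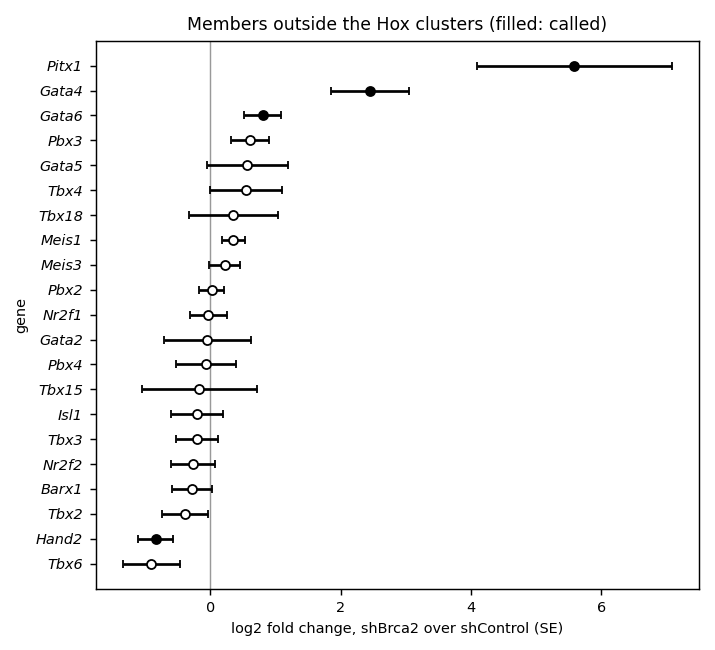
Log2 fold change of shBrca2 over shControl for tested members outside the Hox clusters, with bars of 1 standard error and filled points for called genes. Pitx1 at 5.59 and Gata4 at 2.45 lie highest, and Meis, Pbx, Tbx and Nr2f members lie between -0.90 and 0.61.

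Some members share exon bases with a neighbour, and how strand was treated in counting is not stated in the sources used here. In the GENCODE annotation, 35 of the 53 members share exon bases with another gene, 11 on the same strand and 32 on the opposite strand. Hoxc10 and Hoxc5 share 166 bases on the same strand. Hoxa7 shares 586 with the antisense gene Hoxaas3, Hoxc9 369 with Gm36878, Hoxb5 264 with Hoxb5os, Hand2 669 with its antisense RNAs and Gata6 1154 with Gata6os. Pitx1 shares 108 bases on the same strand and 165 on the opposite strand, and Hoxa9 shares 85 and 522. Reads in all those stretches cannot be assigned with certainty. Hoxc6, Hoxc8, Gata4 and Hoxa5 share none.

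Genes known to control or accompany the Hox code were described by 7 lists, written with results of these data known, that hold 109 genes outside the members. Of 103 tested, 9 were called higher and 8 lower, beside 4.14% higher and 5.79% lower over all genes, and the median log2 fold change was 0.01 beside 0.00. In the retinoic acid list, 3 of 17 were higher and 1 lower. Aldh1a3, an enzyme that makes retinoic acid, was 38.4, 40.5 and 32.1 in shControl and 120, 76.4, 133 and 102 in shBrca2. All shBrca2 libraries were above all shControl libraries, replicate 2 the lowest of them (log2 fold change 1.53, SE 0.28, DESeq2 adjusted p = 8.3e-06). Cyp26a1, which breaks retinoic acid down, also rose (1.15, SE 0.39, adjusted p = 0.0498), as did Stra6, the retinol transporter (1.36, SE 0.38, adjusted p = 0.012), and Rxra, a nuclear receptor partner, fell by 0.79 on the log2 scale (SE 0.18, adjusted p = 0.00062).

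The visceral mesenchyme list had 2 of 8 genes lower and none higher. Nkx2-3, a gut and spleen homeodomain factor, was 360, 383 and 231 in shControl and 101, 148, 149 and 108 in shBrca2, and it fell by 1.37 on the log2 scale (SE 0.24, DESeq2 adjusted p = 3.3e-06). Tcf21, a factor of visceral organ mesenchyme, was 316, 175 and 358 in shControl and 75.7, 133, 74.3 and 79.3 in shBrca2, and it fell by 1.63 (SE 0.30, adjusted p = 7.0e-06). Neither gene overlapped between the groups. In the limb and body wall list, Runx2, the osteoblast factor (0.99, SE 0.33, adjusted p = 0.052), and Irx3 (1.37, SE 0.46, adjusted p = 0.046) rose among 14 genes, and Prrx2 (-0.52, SE 0.15, adjusted p = 0.011) and Osr2 (-1.68, SE 0.38, adjusted p = 0.00062) fell. Osr2, an odd-skipped factor of limb and palate, was 811, 569 and 547 in shControl and 108, 399, 161 and 130.1 in shBrca2, where replicate 2 was the nearest to shControl.

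Chromatin regulators of the Hox clusters were called in both directions. Of 28 polycomb genes, which keep Hox clusters silent, Ezh2 (0.92, SE 0.28, DESeq2 adjusted p = 0.019) and Bmi1 (1.11, SE 0.42, adjusted p = 0.090) rose, and Cbx6 (-0.54, SE 0.13, adjusted p = 0.0023) fell. Of 17 trithorax genes, which keep them active, Psip1 rose (0.58, SE 0.18, adjusted p = 0.030). Of 13 other cofactors, Eya2, a transcriptional coactivator of muscle and limb mesenchyme, fell by 1.21 on the log2 scale (SE 0.28, adjusted p = 0.00067) from 279, 302 and 304 in shControl to 86.9, 194, 136 and 90.5 in shBrca2. Of 6 tested noncoding transcripts of the Hox clusters, Mira rose (1.57, SE 0.46, adjusted p = 0.019) from 7.69, 11.4 and 35.0 to 62.0, 33.8, 65.6 and 54.9. Mira lies directly downstream of the 3' end of Hoxa7 in RefSeq, so its counts and those of Hoxa7 are not independent of how reads were assigned there.

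**Figure D5:**
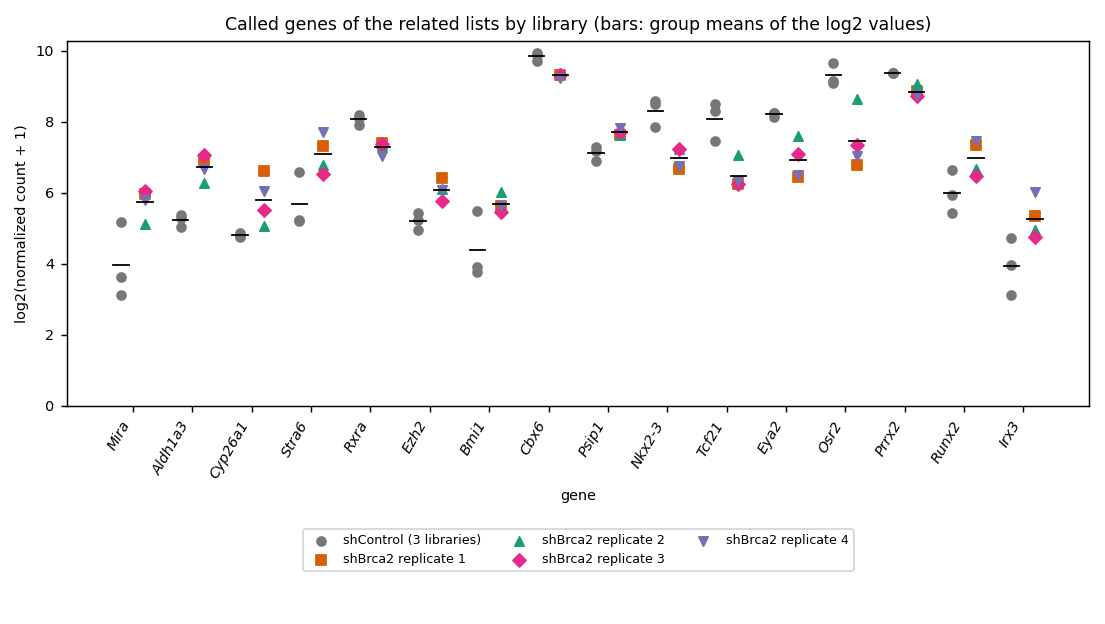
Normalized counts in every library of called genes from the 7 related lists, on a log2(normalized count + 1) axis, with bars at the group means of the log2 values. Aldh1a3 is higher in all 4 shBrca2 libraries, and Nkx2-3, Tcf21 and Eya2 are lower in all 4.

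Fewer cells of a type and less RNA per cell cannot be told apart in such bulk libraries, and markers of other cells moved with the groups. Of 11 fibroblast genes, none was higher and Dcn, Lum, Dpt, Pi16 and Cd34 were lower, and their summed normalized counts were 137230 to 152550 in shControl and 102690 to 125880 in shBrca2. Pdpn, the sort marker, was 600 to 670 in shControl and 457 to 590 in shBrca2, and it was not called. Over the 11 lists of other cells, 14 of 60 tested genes were higher and 5 lower, beside 4.14% and 5.79% over all genes. Mesothelial markers, which line the abdominal organs, summed to 2334 to 6762 in shControl and 9804 to 11384 in shBrca2, with Krt8, Krt18, Krt19 and Slpi higher among 12. Slpi alone was 908 to 3121 in shControl and 6156 to 7612 in shBrca2, and without it the sums overlapped between the groups. Upk3b, Lrrn4 and Rspo1 had log2 fold changes of -0.40, -0.09 and -0.60, none called, and the remaining mesothelial markers were above 0. Epithelial markers summed to 34.2 to 166 and 278 to 448, with Cldn3, Krt7, Elf3 and Spint1 higher among 5 tested, and Epcam was not in the table. Myeloid markers summed to 269 to 306 and 410 to 436 (Csf1r and C1qa higher, Ptprc not in the table). Csf1r alone was 86.6 to 149 and 226 to 276, and without it the sums overlapped. Of the other tested myeloid markers, C1qb had a log2 fold change of 0.69, and Cd68, Lyz2 and Fcer1g had -0.32, -0.26 and -0.11, none called. Erythroid and mast cell markers summed to 90.5 to 106 and 127 to 190.0 (Alas2 higher). Alas2 alone was 3.42 to 10.7 and 44.9 to 85.2, and without it the sums overlapped. Muscle markers summed to 399 to 886 and 810 to 1166 (Des higher, Pax7 and Myod1 not in the table). Des alone was 344 to 824 and 775 to 1129, and without it the sums overlapped. Of the other muscle markers, Acta1 had a log2 fold change of 1.02, Tnnt3 -0.49 and Mb, with a mean under 5, -0.94, none called. Skin markers summed to 73.5 to 115 and 124 to 275 with none of 4 called, and most of the shBrca2 sum was Krt14. Pericyte markers summed to 1655 to 2392 and 1786 to 2404 (Notch3 higher), endothelial markers to 162 to 294 and 230.2 to 295 (none of 6 called), Schwann cell markers to 19.5 to 51.3 and 19.0 to 49.1, and T cell markers, most of it Thy1, to 2355 to 3798 and 2214 to 3814. Acinar markers summed to 161 to 317 and 105 to 169, with Prss2, Cela2a, Cela3b, Cpa1 and Clps lower and Cela1 higher among 7. The part of these cells in the differences of Hox genes, Pitx1, Gata4, Gata6, Hand2 and the related genes was not tested. In shBrca2 replicate 2, which had the lowest posterior Hox share of its group, the mesothelial sum of 9804 and the epithelial sum of 278 were the lowest of the shBrca2 libraries and above every shControl library. Slpi made up 6156 of that mesothelial sum. In replicate 2, as in every other shBrca2 library, the mesothelial sum without Slpi lay within the range of the shControl sums without Slpi. Any link of these sums to the Hox share was not tested.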

How the data were processed

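RNA from sorted CAFs was sequenced from 3' ends with a MARS-seq variant. The authors deposited raw counts per gene symbol for 7 libraries, and the submitters' processing notes name bcl2fastq, cutadapt, STAR 2.4.2a, HTSeq, DESeq2 and mm10. Strand handling and collapsing of molecular identifiers are not given in the sources used here, so counting intervals cover counting error only and PCR copies may be included.

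Groups were taken from the recorded Brca2 status of the KPC cells. The deposited counts were fitted over all 12771 genes with DESeq2 1.42.0 (R 4.3.3), its default size factors and its likelihood ratio test, 3 shControl against 4 shBrca2 libraries, without covariates. Calls needed a Benjamini-Hochberg adjusted p under 0.1, an absolute log2 fold change over 0.5 and a mean normalized count over 5, as the study's methods state. 3 genes received no p, none of them a member. Fold changes were not shrunken, and SE is the standard error. Every pair of libraries differed by more than counting noise. The fit was tested on simulated data. Alternatives were edgeR 4.0.16, other scalings, a filter of 10 counts in 3 libraries, a Wald test, no independent filtering, a replicate term, a threshold of 0.05 and leaving out each library. Shares carry exact Clopper-Pearson intervals.

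Members and the 19 lists of related genes and cell markers were chosen with earlier results of these data known. Genes named with a value in every library were the called members, those without overlap and a mean over 5, and the 4 singled-out genes. Hoxa10, Hoxb8, Hoxc4 and Hoxd9 were added after their values were seen, as were some uncalled genes of the cell marker lists. Other list genes were named when called. Positions and promoters came from RefSeq (GRCm38.p6), exon overlaps from GENCODE on GRCm39. Some genes are not reported here.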

Additional observations from a re-analysis of the deposited data

Results flagged for a closer look

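In groups of 4 libraries, a value was taken up here when its gap to the nearest other library divided by the group's range passed Dixon's 95% critical value, which chance alone reaches in about 1 of 20 groups. Of 48 groups examined, 3 passed. Hoxc8 in shBrca2 had its lowest value, 5.25 normalized counts, in replicate 2, with 0.935 of the range between it and the next library. Pbx3 in shBrca2 was highest in replicate 4, at 59.97 normalized counts (0.908). The HoxB cluster sum in shBrca2 was lowest in replicate 3, at 497.4 normalized counts (0.840). The causes were not tested.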

How the results depend on the processing

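Of the 11 called members, none changed direction in any of the 148 refits that gave an adjusted p: 124 kept the call and 24 lost it, and the cause was not tested. Over the whole table, calls when each library was left out ran from 261 to 610 higher and from 354 to 695 lower, with 261 and 354 without shBrca2 replicate 1, 290 and 372 without shBrca2 replicate 4, 264 and 366 without shControl replicate 1, and 418 lower without shControl replicate 4. Member calls ran from 6 to 10 higher and from 0 to 2 lower, with 0 lower without shBrca2 replicate 1, shControl replicate 1 or shControl replicate 2 and 1 without shBrca2 replicate 3 or 4. Calls in the related lists ran from 3 to 10 higher (3 without shBrca2 replicate 1, 4 without shBrca2 replicate 4 or shControl replicate 4, 5 without shControl replicate 1) and 5 to 8 lower (5 without shBrca2 replicate 3). In the markers of other cells they ran from 8 to 16 higher (8 without shBrca2 replicate 1 or shControl replicate 1) and 1 to 5 lower (3, 2 and 1 without shBrca2 replicate 1, shBrca2 replicate 4 and shControl replicate 1). These counts include the singled-out genes Hoxc8, Hoxc9 and Pitx1. Of the other called members, Hoxc6 and Gata4 were called in all 7 of these fits, and Gata4 passed the mean of 5 only through shBrca2. Without Hoxc9, the mean share of paralog groups 9 to 13 was 4.71% in shBrca2 and 0.885% in shControl, in place of 7.04% and 1.06%. Both versions rest on genes that, apart from Hoxa10, reached a count of 6 only in shBrca2. Members called lower numbered 1 with edgeR, 1 with total counts and 1 at an adjusted p under 0.05. Replicate numbers are shared by the groups. Deviations from the group means correlated at r = -0.07, -0.10 and -0.09 for same-numbered libraries 1, 2 and 4, and at -0.10 to 0.19 for other pairs. So few values cannot tell whether a number marks a shared batch or day, and the sources used here do not say. The replicate block gave 211 genes higher and 280 lower and, of members, 5 higher (Hoxa7, Hoxc6, Hoxc8, Hoxc9 and Pitx1) and 0 lower. Gata4, Hoxa9 and Hoxc10 had no adjusted p in the block fit. Pitx1, Hoxa9 and Hoxc10 were not in the fit with the low count filter. With 1 count per shControl library for Hoxa9 and Pitx1, depth limits their fold changes: the fitted 95% range was 3.64 to 89.8 fold for Hoxa9 and 6.27 to 368 fold for Pitx1.

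Members that were not called and had small fold changes crossed 0. With total counts the log2 fold changes were 0.068 for Gata2, 0.033 for Hoxa2, 0.084 for Hoxb2, 0.11 for Hoxb7, 0.093 for Hoxc4, 0.10 for Nr2f1 and 0.034 for Pbx4. With the replicate block they were 0.082 for Hoxb2, 0.089 for Hoxb7 and -0.076 for Pbx2. Hoxb7 was 0.0025 with the low count filter, and Hoxd4 was -0.0012 with edgeR. When each library was left out, the ranges that crossed 0 were -0.62 to 0.041 for Barx1, -0.37 to 0.25 for Gata2, -0.23 to 0.067 for Hoxa2, -0.28 to 0.035 for Hoxa5, -0.15 to 0.10 for Hoxb2, -0.071 to 0.093 for Hoxb7, -0.17 to 0.13 for Hoxc4, -0.17 to 0.82 for Hoxc5, -0.29 to 0.46 for Hoxd4 and -0.11 to 0.77 for Hoxd8. They were -0.48 to 0.42 for Isl1, -0.24 to 0.25 for Nr2f1, -0.078 to 0.089 for Pbx2, -0.25 to 0.21 for Pbx4, -0.49 to 0.26 for Tbx15, -0.21 to 1.08 for Tbx18 and -0.66 to 0.12 for Tbx2.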
